A study of Homo sapiens with 6 samples.

Results

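Rab GTPase genes were examined in NCI-N87 cells, a human gastric cancer cell line, in which SCAMP1, a membrane protein of secretory and recycling vesicles, had been silenced. The members were the protein-coding genes of the deposited expression table whose symbol was RAB followed by a number and at most 1 letter from A to D, which gave 63 genes of 58735 in the table and of 19951 protein-coding genes. They were grouped by the place where their protein is known to act, with 10 recycling, 12 endosomal, 14 secretory and 17 Golgi Rabs and 10 others. Each gene was put in 1 group, although some act at other places too. The cells had been infected with an shNC or an shScamp1 lentivirus and kept as puromycin-selected (2 μg/ml) populations, and total RNA from 3 libraries of each group was sequenced. The control virus carried the empty pSIH-H1-puro vector, so both groups shared the vector and the selection but not a hairpin. Effects of the single hairpin sequenced and of the loss of SCAMP1 cannot be told apart. The labels name 1 knockdown population and call the libraries biological replicates, but they do not state separate infections or cultures, so the p-values measure the spread between these samples, which may be technical.

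Rab proteins are small GTPases that switch between a GTP-bound form, which recruits effectors to a membrane, and a GDP-bound form, which is drawn back into the cytosol. Exchange factors load GTP, GTPase-activating proteins end the active state, and the resulting cycle gives each compartment its own Rab, such as RAB5 on early endosomes, RAB7 on late endosomes, RAB11 on recycling endosomes and RAB1 between the ER and the Golgi. In gastric epithelium, Rabs of the RAB11 subfamily are known for returning membrane proteins to the cell surface, and RAB27 and RAB3 proteins act in regulated secretion.

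Values are FPKM, fragments per kilobase of gene length scaled to sequencing depth, which allows levels to be compared between genes. Genes that share exonic bases with a neighbour on the same strand are an exception, such as RAB5C (28.8%), RAB4A (19.6%) and RAB43 (79.3%). How reads on shared bases were counted is not given in the sources used here, so their levels and shares are uncertain. The targeted gene, SCAMP1, fell: its mean was 12.1 ± 0.562 FPKM in shNC and 1.69 ± 0.311 FPKM in shScamp1 (each ± is an SD over 3 libraries), a log2 fold change of -2.78 (SE 0.14, limma adjusted p = 0.000248). The libraries held 15064905 to 15988700 reads on genes in shNC and 14311769 to 14667628 in shScamp1. The shScamp1 replicate 2 library stood apart, with 9.21% of its reads on mitochondrial genes against 6.09% to 6.78% in the others. It was the lowest of its group for 29 of the 47 Rab genes tested, against 8 and 10 for replicates 1 and 3. It was the highest of its group for 14, against 22 and 11, and RAB15, RAB5A, RAB5B and RAB27B were among these 14. Of 12 gastric epithelial markers, 8 were tested and 5 of them rose (KRT8, KRT18, KRT19, CDH1 and CEACAM5), against 8.82% of all genes tested. EPCAM, MUC1 and ERBB2 were not called, with log2 fold changes of -0.05, 0.04 and 0.16. The summed level of all 12 ran from 5431 to 5712 FPKM in shNC and from 9073 to 10030 FPKM in shScamp1. TFF1 was at 0 in every library, and the stomach markers CLDN18, TFF2 and MUC5AC had a mean under 0.5 FPKM over all libraries. MUC5AC was therefore not tested, though it had 0.0851 ± 0.0132 FPKM in shNC and 0.685 ± 0.158 FPKM in shScamp1. Summed fibroblast, leukocyte and endothelial markers reached at most 0.773, 2.32 and 0.613 FPKM in any library. The part of the marker levels and of replicate 2 in the Rab values was not tested beyond the values without that library given with the counts. In such bulk RNA, fewer cells of a type and less RNA per cell cannot be told apart.

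Promoter sequences were looked up for the Rab genes to show what the called members hold before their start. The RefSeq table (GRCh38.p14) matched 50 of the 63 genes, and the 250 bases before the annotated start were searched on both strands for short motifs. The sequences of RAB5A and RAB21 are shown because they are the called genes that held the palindrome CACGTG, the core of the element bound by TFEB and MITF, and that of RAB25 because it alone held the cAMP response element TGACGTCA. Capitals mark those motifs, and each run is on the plus strand, 5′ to 3′, at chr3:19946847-19947096, chr12:71754613-71754862 and chr1:156060910-156061159, respectively.
RAB5A: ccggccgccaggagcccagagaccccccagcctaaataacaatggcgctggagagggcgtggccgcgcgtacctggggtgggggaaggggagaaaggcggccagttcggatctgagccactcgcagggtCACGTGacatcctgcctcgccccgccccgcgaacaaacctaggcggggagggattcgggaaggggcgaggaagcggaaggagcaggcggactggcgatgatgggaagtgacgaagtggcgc
RAB21: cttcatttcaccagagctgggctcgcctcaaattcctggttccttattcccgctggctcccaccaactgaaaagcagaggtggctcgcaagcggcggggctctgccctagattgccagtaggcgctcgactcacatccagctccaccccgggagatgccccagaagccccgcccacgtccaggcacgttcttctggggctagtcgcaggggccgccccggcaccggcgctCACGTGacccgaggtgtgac
RAB25: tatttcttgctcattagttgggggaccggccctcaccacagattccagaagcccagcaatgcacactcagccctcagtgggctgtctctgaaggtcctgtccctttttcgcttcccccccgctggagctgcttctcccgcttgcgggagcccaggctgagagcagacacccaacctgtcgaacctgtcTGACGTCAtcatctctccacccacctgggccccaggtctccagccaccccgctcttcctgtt

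CACGTG was present in 5 of the 50 Rab promoters (10%) and in 6.49% of all 27305 promoters of the same length. Of its 5 holders, RAB5A and RAB21 rose, and RAB24, RAB31 and RAB4A were not called. The AP-1 motif (TGAGTCA or TGACTCA) was in 4% of Rab and 4.16% of all promoters, the cAMP response element in 2% and 1.77%, and CCAAT in 26% and 33%. GGGCGG, the GC box bound by SP and KLF factors, was in 78% of Rab promoters and 42.3% of all promoters, with 9 of 10 genes called higher and 23 of 27 genes not called holding it. The 27305 promoters were not limited to protein-coding genes or matched to the Rab promoters for GC content, so these shares are not from matched sets. These are matches of letters in a window, and no binding was measured.

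The Rab genes spanned a wide range of levels. With a minimum mean of 0.5 FPKM over the 6 libraries, 47 of the 63 were tested. RAB7A, the late endosomal Rab that drives fusion with lysosomes, had the highest level, with 110 ± 0.787 FPKM in shNC and 107 ± 11.4 in shScamp1. RAB10, an exocytic Rab, followed with 89.9 ± 1.53 and 97.5 ± 3.96 FPKM. RAB25, the epithelial member of the RAB11 subfamily, had 57.1 ± 0.64 and 68.8 ± 7.09 FPKM. RAB1B and RAB1A, which govern traffic from the ER to the Golgi, had 57.3 ± 2.21 and 53.4 ± 2.37 FPKM in shNC and 60.6 ± 0.221 and 57.0 ± 6.54 in shScamp1. These 5 genes held 45.9% of the summed Rab FPKM in shNC and 45.5% in shScamp1, and none of them was called. Replicate 2 gave the lowest shScamp1 value of RAB7A (93.7 against 114 and 113 FPKM), of RAB1A (49.5 against 61.0 and 60.6 FPKM) and of RAB25 (60.7 against 73.7 and 72.0 FPKM). RAB25 was nevertheless higher than every shNC library in all 3 shScamp1 libraries (log2 fold change 0.26, SE 0.09, limma adjusted p = 0.105).

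The 16 genes that were not tested had means from 0 to 0.347 FPKM and at most 71 reads in a library. They were RAB4B of the recycling group, RAB9B of the endosomal group, RAB3B, RAB3C and RAB37 of the secretory group, RAB6C, RAB6D, RAB30, RAB33A, RAB36 and RAB41 of the Golgi group, and RAB39A, RAB39B, RAB40A, RAB42 and RAB44. RAB3C, a secretory Rab of neurons, and RAB39A had 0 reads in all 6 libraries, which allows up to 0.0186 to 0.0227 FPKM for RAB3C and 0.0984 to 0.12 FPKM for RAB39A at 3 counts a library, covering counting error only.

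After SCAMP1 silencing, 11 Rab genes rose and 2 fell at a limma adjusted p under 0.05, and the other 34 were not called, with log2 fold changes from -0.59 to 0.52. This was 27.7% of the 47 tested, against 14% of all 15556 genes tested and 16.7% of the protein-coding genes tested, and by direction the background was 8.82% higher and 5.17% lower. The genes that rose were RAB15, RAB11A and RAB22A (recycling), RAB5A, RAB5B, RAB9A and RAB21 (endosomal), RAB27B (secretory), and RAB6A, RAB18 and RAB43 (Golgi), with log2 fold changes from 0.29 to 0.96. RAB32 (secretory) and RAB29 (Golgi) fell. The median log2 fold change was 0.08 over the 47 Rab genes and -0.02 over all genes, and 24 Rab genes had a positive value. No Rab gene passed an absolute log2 fold change of 1, the threshold the study used, which 3.16% of all genes passed with the adjusted p. The 2 groups of libraries did not overlap for all 13 called genes and for 26 of the 47 in all (55.3%), against 41.4% of all genes. The count rested on the full set of libraries. With any 1 shNC library left out, RAB15 alone was called, beside 5.19% to 5.52% of all genes. Without shScamp1 replicate 1, 5 Rab genes were higher and 1 was lower, beside 11.7% of all genes, and without replicate 3 RAB15 and RAB43 alone were called, beside 6.62%. Without replicate 2 the counts were 16 higher and 3 lower, beside 27.8% of all genes. With the libraries scaled by their reads outside the mitochondrial genome, RAB11A, RAB22A, RAB5B, RAB9A and RAB21 were no longer called and RAB34 was called lower, beside 16% of all genes. That scaling replaced the deposited one as a whole, and the median log2 fold change over all genes was then -0.09. Over 18 alternative settings, RAB15 passed the threshold in all 18, RAB5A, RAB6A and RAB32 in 13, RAB18 and RAB43 in 12, RAB11A, RAB5B and RAB27B in 10, RAB29 in 9, RAB9A in 8, and RAB21 and RAB22A in 7.

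**Figure D1:**
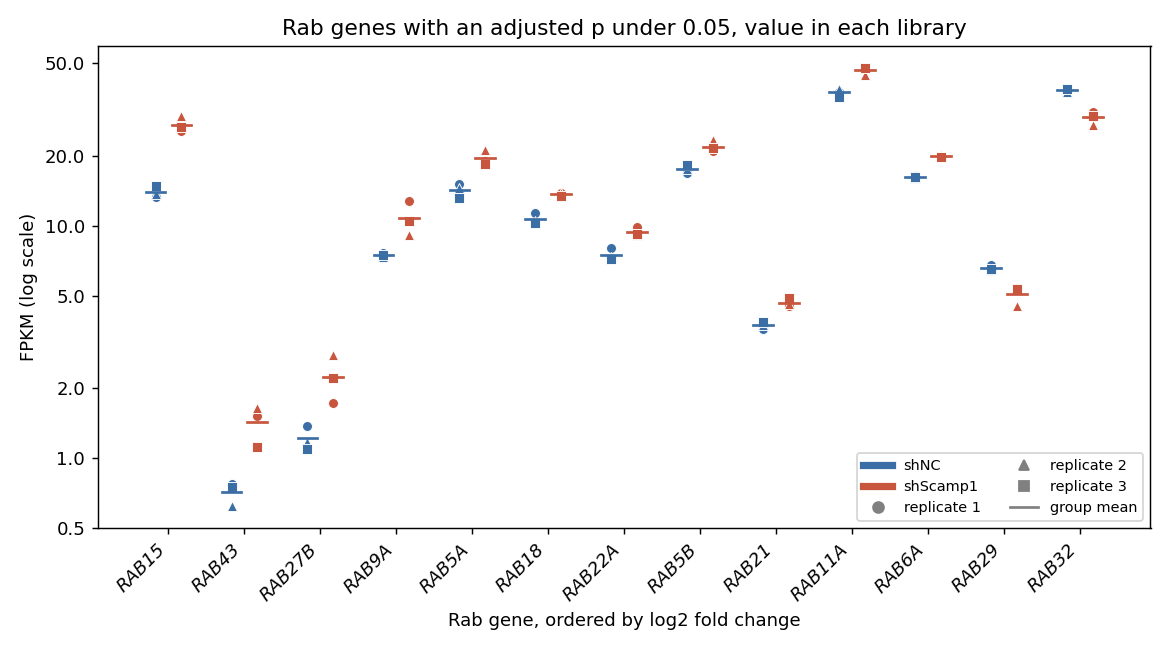
FPKM (log axis) of the 13 Rab genes with a limma adjusted p under 0.05 in each of the 6 libraries, with shNC in blue and shScamp1 in red, marker shapes for the replicates and a line at each group mean. The 11 genes on the left were higher and the 2 on the right lower in all 3 shScamp1 libraries, from RAB43 near 1 FPKM to RAB11A near 40 FPKM.

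RAB15, which acts between sorting and recycling endosomes (chr14:64945814-64973226, minus strand, ENSG00000139998), changed most among the recycling Rabs. It measured 13.3, 13.7 and 14.9 FPKM in shNC and 25.6, 29.6 and 26.5 FPKM in shScamp1. All shScamp1 libraries were well above all shNC libraries, a 1.95-fold difference of means (log2 fold change 0.96, SE 0.08, limma adjusted p = 0.00133). Its log2 fold change ran from 0.89 to 1.01 over the alternative settings. RAB15 was not in the promoter table.

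RAB11A, the general Rab of the recycling endosome (chr15:65726054-65891991, plus strand), measured 37.5, 38.8 and 35.9 FPKM in shNC and 47.8, 44.3 and 47.7 FPKM in shScamp1. The lowest shScamp1 value, in replicate 2, lay above the highest shNC value, and the means differed by 24.4% (log2 fold change 0.31, SE 0.07, limma adjusted p = 0.0282). RAB22A, which works between early and recycling endosomes (chr20:58309696-58367507, plus strand), gave 8.02, 7.31 and 7.20 FPKM in shNC and 9.92, 9.09 and 9.23 FPKM in shScamp1. The groups did not overlap (log2 fold change 0.32, SE 0.08, limma adjusted p = 0.0390). The other recycling Rabs tested, RAB4A, RAB11B, RAB14, RAB17, RAB25 and RAB35, were not called. Of the 9 recycling Rabs tested, 33.3% were called, against 14% of all genes tested. Their median was 0.26 on the log2 scale, the highest of the groups. RAB11B, the close relative of RAB11A, had 28.1, 29.8 and 32.8 FPKM in shNC and 33.7, 22.7 and 34.6 FPKM in shScamp1, with the replicate 2 library below all others (log2 fold change -0.02, SE 0.17).

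Among the endosomal Rabs, 4 of 11 tested (36.4%) rose and none fell, with a median log2 fold change of 0.12. Of all genes tested, 8.82% rose and 5.17% fell. RAB5A, a master regulator of early endosome fusion (chr3:19947079-19985175, plus strand), had 15.1, 14.5 and 13.1 FPKM in shNC and 18.9, 21.2 and 18.5 FPKM in shScamp1. The shScamp1 libraries were all higher (log2 fold change 0.45, SE 0.09, limma adjusted p = 0.0204). RAB5B, its paralog on the same membrane (chr12:55973913-55996683, plus strand), had 16.9, 17.5 and 18.2 FPKM in shNC and 20.9, 23.3 and 21.5 FPKM in shScamp1. It was again higher in each shScamp1 library (log2 fold change 0.32, SE 0.07, limma adjusted p = 0.0320). RAB5C, the remaining paralog, differed from both, with 11.6, 11.7 and 11.6 FPKM in shNC and 12.2, 6.43 and 10.9 FPKM in shScamp1. Its spread came mainly from replicate 2, and it was not called (log2 fold change -0.29, SE 0.23, limma adjusted p = 0.428).

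RAB9A carries mannose 6-phosphate receptors from late endosomes back to the trans-Golgi network (chrX:13689125-13710506, plus strand). It measured 7.65, 7.37 and 7.46 FPKM in shNC and 12.7, 9.14 and 10.5 FPKM in shScamp1. The shNC libraries were close together and the shScamp1 libraries scattered above them (log2 fold change 0.51, SE 0.12, limma adjusted p = 0.0439). RAB21, an early endosomal Rab that binds integrins (chr12:71754874-71800285, plus strand), had 3.58, 3.75 and 3.86 FPKM in shNC and 4.53, 4.60 and 4.88 FPKM in shScamp1. The groups were separate (log2 fold change 0.32, SE 0.07, limma adjusted p = 0.0382). RAB7A, RAB7B, RAB12, RAB20, RAB24 and RAB31 were not called. RAB24, a Rab linked to autophagy, had 2.69, 2.21 and 2.92 FPKM in shNC and 2.55, 0.92 and 2.02 FPKM in shScamp1, so that its negative value came mainly from replicate 2 (log2 fold change -0.59, SE 0.35), and it shares 44.8% of its exonic bases with MXD3 on the same strand.

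Secretory Rabs mostly had negative values. Only 2 of 11 tested had a positive log2 fold change, and the median was -0.25. By call, 1 rose and 1 fell (18.2%, against 14% of all genes tested). RAB27B, which docks secretory vesicles and exosome-bearing endosomes at the plasma membrane (chr18:54717860-54895516, plus strand), had 1.37, 1.18 and 1.10 FPKM in shNC and 1.72, 2.77 and 2.22 FPKM in shScamp1. The ranges did not meet, and the means differed 1.84-fold (log2 fold change 0.81, SE 0.19, limma adjusted p = 0.0408). RAB27A, its paralog, had 3.22, 3.03 and 2.91 FPKM in shNC and 2.53, 2.58 and 2.68 FPKM in shScamp1. All shScamp1 values were below all shNC values, but the gene was not called (log2 fold change -0.22, SE 0.08, limma adjusted p = 0.122).

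RAB32 serves the biogenesis of lysosome-related organelles and also sits at mitochondria (chr6:146543693-146554965, plus strand). It measured 38.1, 37.6 and 38.9 FPKM in shNC and 30.9, 27.1 and 29.7 FPKM in shScamp1. It was lower by 23.5% of the shNC mean, in 3 of 3 shScamp1 libraries (log2 fold change -0.39, SE 0.07, limma adjusted p = 0.0177). RAB38, the close relative that shares this role, had 3.40, 4.83 and 3.76 FPKM in shNC and 2.66, 2.19 and 3.22 FPKM in shScamp1, and missed the threshold (log2 fold change -0.55, SE 0.18, limma adjusted p = 0.0973). The exocytic Rabs RAB3A, RAB3D, RAB8A, RAB8B, RAB10, RAB13 and RAB26 were not called.

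Of 11 Golgi Rabs tested, 3 rose and 1 fell (36.4%, against 14% of all genes tested), with a median log2 fold change of 0.09. RAB6A, which directs retrograde transport from and within the Golgi (chr11:73675638-73761137, minus strand), gave 16.3, 16.1 and 16.3 FPKM in shNC and 19.8, 20.1 and 19.8 FPKM in shScamp1. It had the smallest standard error of the called genes (log2 fold change 0.29, SE 0.05, limma adjusted p = 0.0189). Of its 75-base stretches, 12.6% also occur in other genes, RAB6C, RAB6D and an antisense RNA among them, and those Rab genes were almost without reads. RAB18, found on the ER and on lipid droplets (chr10:27504174-27542237, plus strand), was counted here with the Golgi Rabs. It had 11.4, 10.5 and 10.2 FPKM in shNC and 13.8, 13.9 and 13.4 FPKM in shScamp1, again without overlap (log2 fold change 0.35, SE 0.07, limma adjusted p = 0.0206).

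RAB43, a Rab of the Golgi and the ER exit route (chr3:129087569-129122801, minus strand), was near the lower end of the levels tested. It had 0.771, 0.625 and 0.752 FPKM in shNC and 1.52, 1.64 and 1.12 FPKM in shScamp1, from 52 to 112 reads a library. The groups were separate (log2 fold change 0.89, SE 0.20, limma adjusted p = 0.0327). RAB43 shares 79.3% of its exonic bases with the readthrough gene ISY1-RAB43, so its reads cannot all be assigned with certainty. RAB29, a Rab of the trans-Golgi network that recruits LRRK2 (chr1:205767986-205775460, minus strand), had 6.77, 6.48 and 6.50 FPKM in shNC and 5.41, 4.50 and 5.33 FPKM in shScamp1. It was lower in each shScamp1 library (log2 fold change -0.37, SE 0.09, limma adjusted p = 0.0447). RAB2B, which acts between the ER and the Golgi, had 1.66, 1.75 and 1.42 FPKM in shNC and 2.54, 2.51 and 2.01 FPKM in shScamp1 and missed the threshold (log2 fold change 0.52, SE 0.14, limma adjusted p = 0.0560).

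None of the 5 tested Rabs outside these groups was called, and their median log2 fold change was -0.30. RAB34, which acts in ciliogenesis and lysosome positioning, came closest, with 25.1, 26.0 and 25.1 FPKM in shNC and 22.0, 18.4 and 21.4 FPKM in shScamp1. The libraries did not overlap (log2 fold change -0.30, SE 0.08, limma adjusted p = 0.0626). RAB23, a negative regulator of Hedgehog signalling, shares 57.7% of its exonic bases with BAG2 on the opposite strand, and whether reads were counted by strand is not given in the sources used here.

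**Figure D2:**
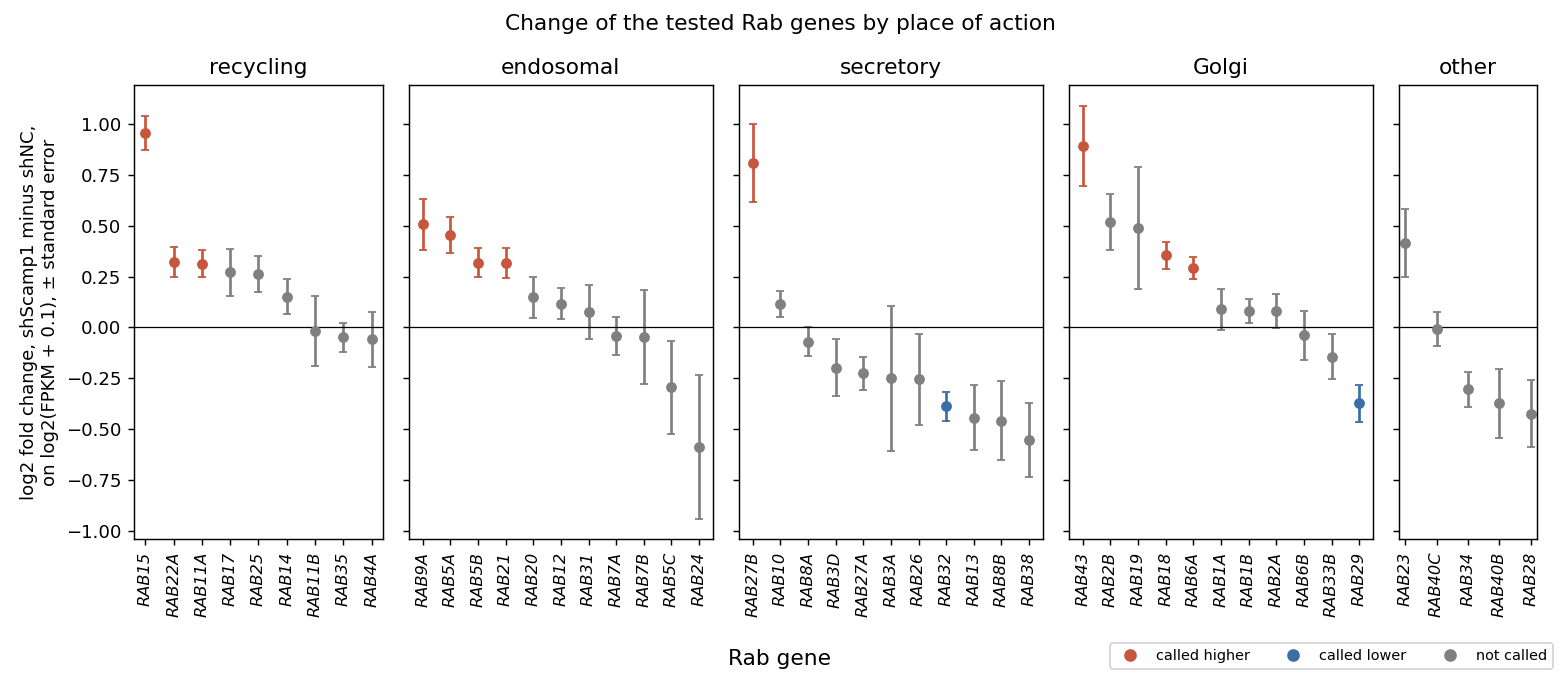
Log2 fold change of shScamp1 minus shNC on the log2(FPKM + 0.1) scale for the 47 tested Rab genes in panels by place of action, with bars of 1 standard error and red, blue and grey points for genes called higher, called lower and not called. Called genes lie above 0 in the recycling and endosomal panels, and most points of the secretory panel lie below 0.

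Because FPKM is per length, it can be summed over genes, with the limit given above for genes that share bases with a neighbour. All Rab genes together held 798, 805 and 800.4 FPKM in shNC and 885, 814 and 876 FPKM in shScamp1. Every shScamp1 library was higher, with the mean up by 7.13% (exact permutation test over samples, two-sided p = 0.1, the smallest that 3 libraries against 3 can give). The difference was 2.28%, and the groups overlapped, when the libraries were scaled by total reads outside the mitochondrial genome in place of the deposited scaling. Recycling Rabs summed to 217, 222 and 219 FPKM in shNC and 269, 243 and 266 FPKM in shScamp1. Here the groups stayed separate under both scalings, with means 18.4% apart as deposited and 13% apart under the other scaling (exact permutation p = 0.1). The sum of the secretory Rabs was lower in all shScamp1 libraries, from 155 ± 0.918 to 151 ± 1.42 FPKM, and that of the ungrouped Rabs from 48.9 ± 1.06 to 42.9 ± 4.10 FPKM (exact permutation p = 0.1 each). The difference of the secretory sum was -3.03% as deposited and -7.44% under the other scaling. For the ungrouped sum it was -12.3% and -16.3%. RAB32 alone went from 38.2 to 29.2 FPKM, a larger fall than that of the whole secretory sum. RAB32 and RAB38, described above with lysosome-related organelles, were counted in the secretory group and together went from 42.2 to 31.9 FPKM. RAB10, the highest of that group, went from 89.9 to 97.5 FPKM. The Golgi sum was 167 ± 0.612 FPKM in shNC and 182 ± 7.39 FPKM in shScamp1 (exact permutation p = 0.1). Under the other scaling these groups overlapped. The endosomal sum, 210 ± 0.467 and 223 ± 13.7 FPKM, overlapped as deposited (exact permutation p = 0.4).

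**Figure D3:**
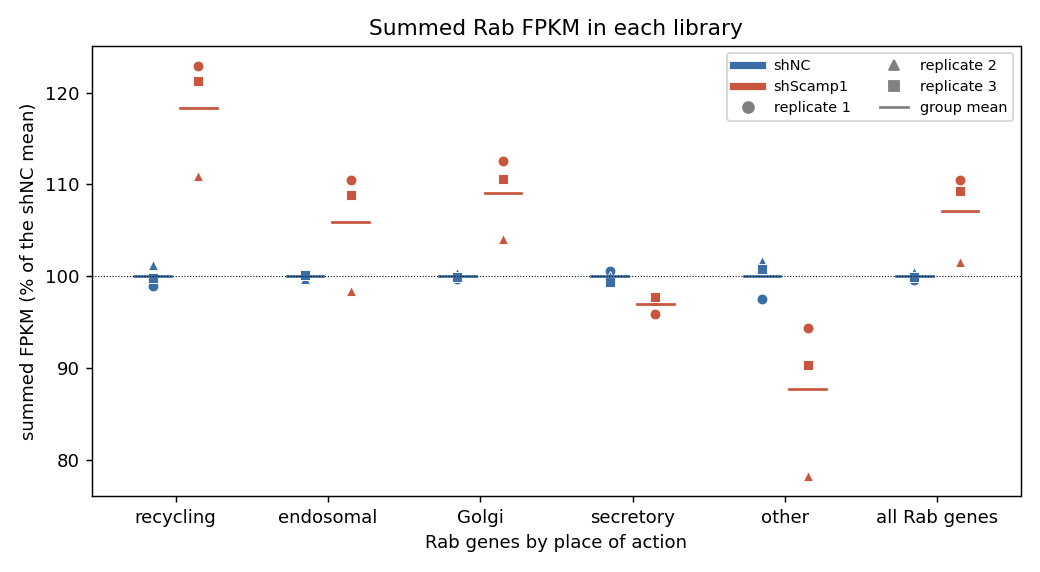
Summed FPKM of the Rab genes of each place of action and of all 63, as a percentage of the shNC mean, in each library, with a line at the group mean and markers for the replicates. The recycling sum stands highest in shScamp1 (18.4% above shNC), and the replicate 2 triangle lies apart from the other shScamp1 libraries for most sums.

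Within subfamilies the balance between paralogs was also measured. Among 15 subfamilies summed, 7 had groups that did not overlap, a share near the 41.4% of all genes. The RAB9 sum was higher by 43.4% and RAB6 (RAB6A, RAB6B and RAB6C, without RAB6D) by 19.9%. RAB9A held 99.3% of the RAB9 sum and RAB6A 89.5% of the RAB6 sum in shNC, so these sums mostly repeat the single genes. RAB22 (RAB22A and RAB31) was higher by 18.5%, RAB5 by 18.1% and RAB11 (RAB11A, RAB11B and RAB25) by 16.8%. The RAB32 subfamily (RAB32 and RAB38) went from 42.2 ± 0.617 to 31.9 ± 2.32 FPKM and RAB8 from 8.36 ± 0.379 to 7.55 ± 0.557 FPKM. Each of the 7 had an exact permutation p of 0.1, or 0.214 adjusted over the 15 sums.

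Of 36 member shares, 20 did not overlap between the groups. The largest shift, 17.4 points, was in the RAB27 pair. RAB27B held 29.9%, 28.0% and 27.4% of the pair's FPKM in shNC and 40.5%, 51.8% and 45.2% in shScamp1, and RAB27A held the rest. In the RAB5 subfamily, RAB5A went from 32.8% ± 2.07 to 38.1% ± 3.04 and RAB5C from 26.9% ± 0.204 to 19.2% ± 5.73, of which the replicate 2 value was 12.6%. RAB8B held 22.5%, 21.8% and 19.1% of the RAB8 sum in shNC and 18.1%, 13.6% and 18.6% in shScamp1. RAB11B held 22.9%, 23.6% and 26.2% of the RAB11 sum in shNC and 21.7%, 17.8% and 22.4% in shScamp1. In both, as for RAB5A, RAB5C and the RAB27 pair, replicate 2 lay farthest from shNC and the other shScamp1 libraries lay nearer. The share of each of these genes had an exact permutation p of 0.1, or 0.18 adjusted over 36 member shares, since 3 libraries against 3 could not reach 0.05. Shares within a subfamily depend on each other, so these are not 36 separate tests.

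**Figure D4:**
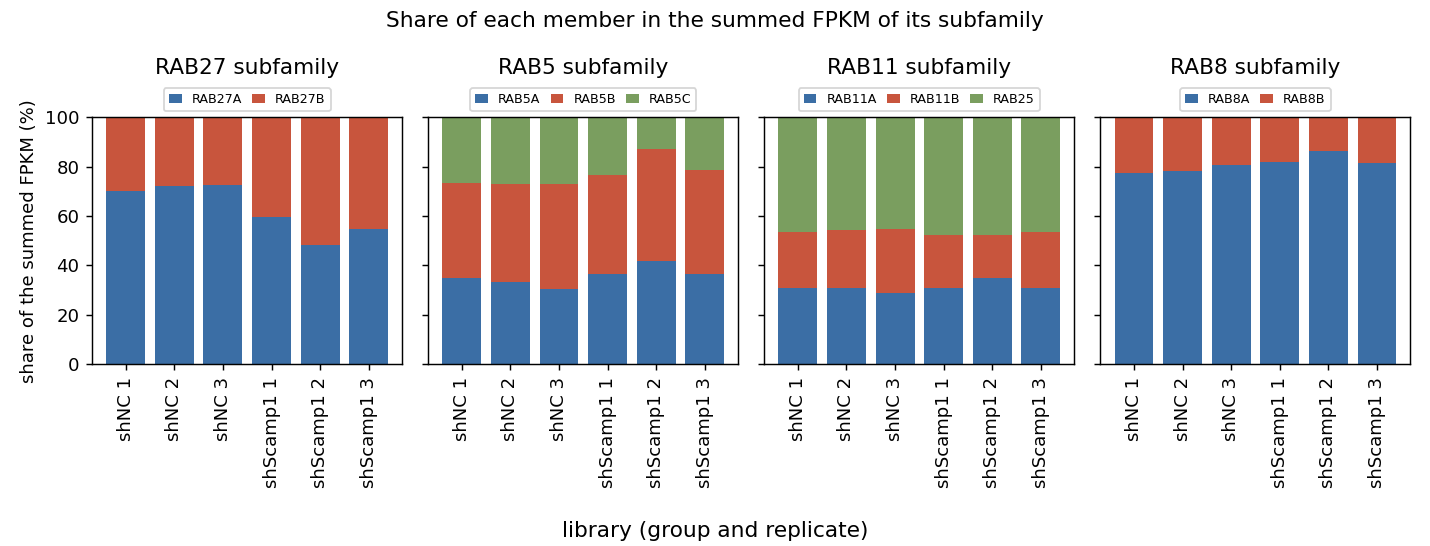
Share (%) of each member in the summed FPKM of the RAB27, RAB5, RAB11 and RAB8 subfamilies in each of the 6 libraries. RAB27B holds 27.4% to 29.9% of its pair in shNC and 40.5% to 51.8% in shScamp1, and RAB5C is smallest in shScamp1 replicate 2 (12.6%).

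The genes that act on or with Rabs were counted from 5 lists of 141 genes, of which 130 were tested. Of these, 19 rose and 2 fell, which is 16.2%, near the 14% of all genes and the 16.7% of protein-coding genes tested, and their median log2 fold change was 0.10. The count moved with single libraries, and so did the share of all genes called. It was 9 without shNC replicate 1 (5.34% of all genes) and 10 without shNC replicate 2 or 3 (5.19% and 5.52%). It was 12 without shScamp1 replicate 3 (6.62%) and 49 without shScamp1 replicate 2 (27.8%). Among 10 genes of Rab prenylation and membrane cycling, 1 rose and none fell. This was ARL6IP5, a member of the prenylated Rab acceptor family, with 16.2, 15.4 and 16.9 FPKM in shNC and 23.7, 21.3 and 23.8 FPKM in shScamp1 (log2 fold change 0.50, limma adjusted p = 0.00946).

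Of 38 exchange factors tested, 3 rose and none fell (7.89%, against 14% of all genes tested), with a median log2 fold change of 0.02. They included DENND2C (from 2.58 ± 0.191 to 4.24 ± 0.404 FPKM, log2 fold change 0.69) and DENND3, which acts on RAB12 (from 2.08 ± 0.0893 to 2.87 ± 0.14 FPKM, log2 fold change 0.45), each with a limma adjusted p under 0.05. Of 33 GTPase-activating proteins tested, 5 rose and 1 fell (18.2%, against 14% of all genes tested). RABGAP1L (from 2.57 ± 0.117 to 4.56 ± 0.656 FPKM), USP6NL, which turns off RAB5 (from 7.53 ± 0.172 to 13 ± 1.92 FPKM), TBC1D2, which turns off RAB7 (from 19.7 ± 0.853 to 29.2 ± 1.83 FPKM), and TBC1D17 (from 5.88 ± 0.572 to 7.76 ± 0.422 FPKM) had the largest rises, with log2 fold changes of 0.79, 0.77, 0.56 and 0.40. GRTP1 fell from 10.7 ± 0.529 to 6.71 ± 0.801 FPKM (log2 fold change -0.68, limma adjusted p = 0.00963).

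The largest changes in these lists were among the effectors. Of 47 tested, 9 rose and 1 fell (21.3%, against 14% of all genes tested), with a median log2 fold change of 0.20. MLPH, melanophilin, which links RAB27 to myosin V, had 5.89, 6.46 and 5.72 FPKM in shNC and 18.9, 17.5 and 18.7 FPKM in shScamp1. Its libraries were far apart (log2 fold change 1.59, SE 0.08, limma adjusted p = 0.000217). RAB11FIP1, an effector of RAB11 and RAB25, had 9.80, 9.22 and 9.64 FPKM in shNC and 17.4, 25.6 and 18.9 FPKM in shScamp1, again without overlap (log2 fold change 1.08, SE 0.15, limma adjusted p = 0.00661). MLPH and RAB11FIP1 were the only regulators or effectors past both the adjusted p and an absolute log2 fold change of 1. OPTN, which binds RAB8, rose by 0.67 and PLEKHM1, which binds RAB7, by 0.78 on the log2 scale, though PLEKHM1 has a near-identical pseudogene copy that makes its reads uncertain. KIF20A, a mitotic kinesin first described as a RAB6 partner, fell by 0.32 on the log2 scale (limma adjusted p = 0.0183).

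Further partners of RAB11 and RAB27 were chosen for naming after their values were seen. RAB11FIP5 rose from 13 ± 0.441 to 20.2 ± 2.50 FPKM (log2 fold change 0.63, limma adjusted p = 0.0108), while RAB11FIP2, RAB11FIP3 and RAB11FIP4 were not called, with log2 fold changes of 0.31, -0.10 and 0.34. MYO5C, a myosin V of exocrine epithelia, rose from 5.93 ± 0.256 to 8.45 ± 1.11 FPKM (limma adjusted p = 0.0331), and MYO5B, the motor bound by RAB11, was not called (log2 fold change 0.09). UNC13D, the Munc13-4 effector of RAB27, rose from 33.0 ± 1.2 to 42.0 ± 1.04 FPKM (limma adjusted p = 0.016), and the synaptotagmin-like effectors SYTL1, SYTL2, SYTL3 and SYTL4 were not called, with log2 fold changes from 0.07 to 0.26. PPM1H, the phosphatase that reverses LRRK2 phosphorylation of Rabs, had 5.13, 4.98 and 4.50 FPKM in shNC and 8.98, 9.94 and 8.49 FPKM in shScamp1, with all shScamp1 libraries higher (log2 fold change 0.89, limma adjusted p = 0.00227). LRRK2 itself had at most 1 read in a library and was not tested.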

How the data were processed

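Total RNA of shNC and shScamp1 NCI-N87 cells was sequenced in 3 libraries per group. The authors deposited FPKM per gene and library, and the submitters' processing notes name HISAT2 2.0.5, featureCounts 1.5.0-p3 and DESeq2 1.20.0 with the hg38 build, and do not say whether strand was used. FPKM times gene length gave whole reads for 100% of values (tolerance 0.01 reads), already scaled by median-of-ratios size factors of 0.914 to 1.11. Coordinates equal GENCODE 29 for all 58735 genes. limma 3.58.1 (R 4.3.3) was fitted with a mean-variance trend to log2(FPKM + 0.1) of the 15556 genes whose mean reached 0.5 FPKM, with Benjamini-Hochberg adjustment over all of them, and tested on simulated data. The pseudocount understates changes of low genes. Called means an adjusted p under 0.05. The study's threshold adds an absolute log2 fold change above 1. Sums and shares used exact two-sided permutation tests over samples. Genes were named if called, among the 5 highest Rabs, or at an adjusted p of 0.05 to 0.10, with up to 4 called regulators or effectors per list and direction. An exchange factor that this rule names is not reported here. Members and lists were chosen with earlier results of these data known. Alternatives were other pseudocounts, filters, scalings, a fit without the trend, voom on the recovered reads, a replicate block, protein-coding genes only and leaving out each library.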

Additional observations from a re-analysis of the deposited data

How the results depend on the processing

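The count of Rab genes called higher (11) was 7 with a minimum mean of 0.1 FPKM (8.06% of all genes called) and 6 with no filter (4.81%). It was 6 with scaling by reads outside the mitochondrial genome (16%), 5 without the mean-variance trend (12%), and 1 to 16 when 1 library was left out (5.19% to 27.8%). The count called lower (2) was 1 with each of those filters and without the trend. It was 7 at an unadjusted p under 0.05, where the share of all genes was not taken. With GC content and gene length trends removed in each library, an alternative chosen after seeing the data, it was 4 (19.5%). It was 0 to 3 when 1 library was left out. The count past the fold threshold (0) was 0 to 1 when 1 library was left out. Called regulators and effectors (21) were 33 with voom on the recovered reads (17.7% of all genes called) and 36 with protein-coding genes only (22.8%). They were 37 with the GC and length trends removed (19.5%) and 9 to 49 when 1 library was left out (5.19% to 27.8%). The summed Rab FPKM was 7.13% higher as deposited, and 5.45% to 9.90% higher when 1 library was left out. It was 2.28% higher with scaling by total reads outside the mitochondrial genome. That scaling replaced the deposited one as a whole and moved the median log2 fold change of all genes from -0.02 to -0.09. RAB7A, not called at -0.04, was 0.016 with quantile normalization, 0.0038 with the GC and length trends removed and -0.092 to 0.049 when 1 library was left out, positive only without shScamp1 replicate 2, and was called under none of them. Of 378 values of 21 named genes under 18 alternatives, these 3 changed direction, 271 kept direction and side of the threshold, 92 lost the call and 12 gained it. The causes were not tested. Depth limits the genes near 0.5 FPKM, such as RAB3A with 7 to 20 reads a library.

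A fit with the replicate number as a block called 1 Rab gene higher (RAB15), 0 lower and 12 regulators or effectors, beside 6.16% of all genes. The correlations of same-numbered libraries' deviations were -0.04, 0.03 and 0.07, so the numbers are not shown to pair the samples.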

Other observations

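Several genes related to Rabs fall outside the symbol rule. Of 9 such genes tested, 0 were called by limma, with a median log2 fold change of -0.12. RABL2A, a ciliary Rab-like GTPase, had 1.95, 1.84 and 1.95 FPKM in shNC and 1.40, 1.13 and 1.46 FPKM in shScamp1 (log2 fold change -0.50, limma adjusted p = 0.0532). RASEF, a large Rab with EF-hands also called RAB45, had 6.01, 6.44 and 5.88 FPKM in shNC and 7.41, 9.98 and 7.99 FPKM in shScamp1 (log2 fold change 0.45, limma adjusted p = 0.0564). Neither gene overlapped between the groups. RAN, the nuclear transport GTPase, had 128, 124 and 132 FPKM in shNC and 114, 79.5 and 110 FPKM in shScamp1, with the lowest value in replicate 2 (log2 fold change -0.36, limma adjusted p = 0.152).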
